A study of Mus musculus with 36 samples.

Results

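The 6 genes described here are the mouse genes *Slit1*, *Slit2* and *Slit3*, which encode secreted guidance ligands, and *Robo1*, *Robo2* and *Robo3*, which encode transmembrane receptors of the roundabout family. They were chosen by gene name from the 22761 genes of the deposited expression table, and all 6 names were found. SLIT proteins bind the outer part of ROBO1 and ROBO2, and the bound receptor acts through adaptors and GTPase regulators on the actin cytoskeleton, typically repelling the cell or growing axon. ROBO3 is best known from axons that cross the midline, where it works differently from the other receptors. In the embryonic kidney SLIT2 and ROBO2 are known for limiting where the ureteric bud grows out, and loss of either is known to give extra buds, with GDNF expressed over too wide a territory.

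The data were RNA sequencing values of 36 libraries in 9 groups of 4. Ex-fetu cells were sorted from the kidneys of CD1 mouse embryos at E11.5 and at E12.5, as ureteric bud (UB), nephron progenitors (NP) and stromal progenitors (SP). The mouse embryonic stem cell (mESC) derived groups were engineered ureteric bud (eUB, titled iUB in the sample labels) and the induced counterparts of nephron (iNP) and stromal (iSP) progenitors. iNP and iSP came from embryoid bodies of the E14 mESC line, and eUB from an mESC line that the labels name *Sox9-mCherry*, while the study elsewhere describes making a *Sox8-mCherry* line, so line and cell type changed together between eUB and the other mESC-derived groups. NP and iNP were gated as ITGA8 high and PDGFRA low, SP and iSP as ITGA8 low and PDGFRA high, each after removal of CD31 and EpCAM or RET positive cells. The paper writes the ex-fetu UB gate as positive for RET and EpCAM, and lists both sorting antibodies with the same dye. Whether a cell had to carry both is therefore not known. The gate for eUB took EpCAM together with mCherry. An ex-fetu sample is a litter pool, and an mESC-derived sample is a pool of embryoid bodies that were differentiated in parallel. The UB samples titled E11.5 carry E12.5 as their cell source in the labels and the reverse, and the titles, which the cell type label shares, were followed here. Were the sources right, the values given for E11.5 UB and E12.5 UB would change places throughout, the UB age comparison would turn its direction, and comparisons of UB with NP or SP and differences of differences with eUB would set different ages against each other.

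Values are normalised CPM, the read counts per library scaled to a common total and by the authors' edgeR factors. The libraries held 13.0 to 52.5 M reads on genes, and 3 reads, taken as the smallest detectable level, were worth 0.0605 to 0.223 normalised CPM. The label of each sort matched its markers, which the gates fixed in part. The marker lists held the gated genes *Itga8*, *Pdgfra*, *Ret* and *Epcam*. Summed over 6 nephron progenitor markers, the NP and iNP libraries reached 455 to 2041 normalised CPM, the SP and iSP libraries 122 to 285. The 5 stromal markers summed to 1693 to 3060 in SP and iSP and to 340 to 659 in NP and iNP. Muscle markers, nearly all *Des*, summed to 71.0 to 299 in the NP, SP, iNP and iSP groups. The 7 ureteric bud markers summed to 1729 to 3240 in the UB and eUB libraries, at most 133 in NP and iNP, and 128 to 299 in E11.5 SP.

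Some libraries stood apart from their group. E12.5 UB replicate 1 carried more RNA of other cells than replicates 2 to 4: nephron progenitor markers summed to 385 against 50.9 to 80.4, stromal markers to 403 against 178 to 184, endothelial markers to 85.2 against 2.79 to 5.65, and pluripotency markers to 11.3 against at most 0.145, while its ureteric bud markers were at 1729 against 2707 to 2846. iNP replicate 2 had the lowest nephron progenitor sum of its group, 455 against 687 to 844. E12.5 NP replicate 1 was low in nephron progenitor markers, 1194 against 1824 to 2041, and E12.5 SP replicate 1 in stromal markers, 1693 against 2850 to 3060. eUB replicate 1 was the shallowest library of all, with 13.0 M reads. Where leaving out 1 of these libraries made or ended a call of a member, both values are given.

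The sequences just before RefSeq start sites are shown for *Slit2*, *Robo1* and *Robo2*, the members whose levels differed between mESC-derived and E11.5 cells in more than a single cell type. Positions are those of GRCm38. *Slit2* (ENSMUSG00000031558) spans chromosome 5, 47983138 to 48307733, on the plus strand. *Robo1* (ENSMUSG00000022883) spans chromosome 16, 72308306 to 73046095, on the plus strand, and *Robo2* (ENSMUSG00000052516) spans chromosome 16, 73891839 to 74411825, on the minus strand. RefSeq starts were found for 5 of the 6 genes, and *Slit1* had no entry. The *Slit2* stretch, chr5:47982905-47983137, is 233 bases, and 17 bases that the GENCODE annotation places inside the transcript were left off. The *Robo1* stretch, chr16:72662899-72663148, lies 354843 bases inside the GENCODE gene, before a downstream start. The *Robo2* stretch, chr16:74411826-74412075, ends at the GENCODE gene start, and RefSeq lists further starts upstream of it. Capitals mark matches on either strand to the GC box letters GGGCGG and the TATA box letters TATAAA.
Slit2: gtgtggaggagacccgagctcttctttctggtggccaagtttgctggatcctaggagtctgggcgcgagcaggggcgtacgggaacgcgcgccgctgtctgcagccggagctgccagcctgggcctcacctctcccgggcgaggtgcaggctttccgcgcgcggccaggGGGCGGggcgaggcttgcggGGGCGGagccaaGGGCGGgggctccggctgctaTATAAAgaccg
Robo1: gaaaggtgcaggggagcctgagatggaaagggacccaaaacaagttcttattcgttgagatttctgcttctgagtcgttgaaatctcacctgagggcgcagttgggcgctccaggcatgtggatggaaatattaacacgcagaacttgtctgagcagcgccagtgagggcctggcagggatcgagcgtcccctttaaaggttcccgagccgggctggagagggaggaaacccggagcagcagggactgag
Robo2: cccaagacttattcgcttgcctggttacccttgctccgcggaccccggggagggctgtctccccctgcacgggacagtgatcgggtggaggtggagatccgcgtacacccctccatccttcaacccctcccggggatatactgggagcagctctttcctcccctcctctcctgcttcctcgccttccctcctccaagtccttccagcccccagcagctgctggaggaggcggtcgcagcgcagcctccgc

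The *Slit2* stretch held 3 GC box matches and 1 TATA box match, and neither *Robo* stretch held any. Of 32851 mouse promoters of the same table, read over the 250 bases before the start, 32.7% held a GC box match and 12.4% a TATA box match. CG dinucleotides numbered 23 in the *Slit2* stretch, 11 in that of *Robo1* and 14 in that of *Robo2*, against a median of 6 per promoter. These matches describe the letters only, and which start the measured transcripts used was not determined from the deposited values. The other members were *Slit1* (ENSMUSG00000025020, chromosome 19, 41600257 to 41743665, minus strand), *Slit3* (ENSMUSG00000056427, chromosome 11, 35121224 to 35708507, plus strand) and *Robo3* (ENSMUSG00000032128, chromosome 9, 37415669 to 37433246, minus strand). No other annotated gene shared exonic bases with a member.

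*Slit2*, *Slit3*, *Robo1* and *Robo2* had at least 1 normalised CPM in all 36 libraries, *Slit1* in 27 and *Robo3* in 0. A gene was tested in a comparison when 4 or more of its libraries reached 1, so 5 members were tested in most comparisons and *Robo3* in none. Tests used limma on log2(normalised CPM + 1) across all genes, with Benjamini-Hochberg adjustment, and a gene is said to rise, fall or be called where its adjusted p-value was under 0.05. Log2 fold changes refer to this scale, on which low genes such as *Slit1* change by less than their ratio of means. In sorted bulk samples, fewer cells of a type and less RNA per cell cannot be told apart.

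**Figure D1:**
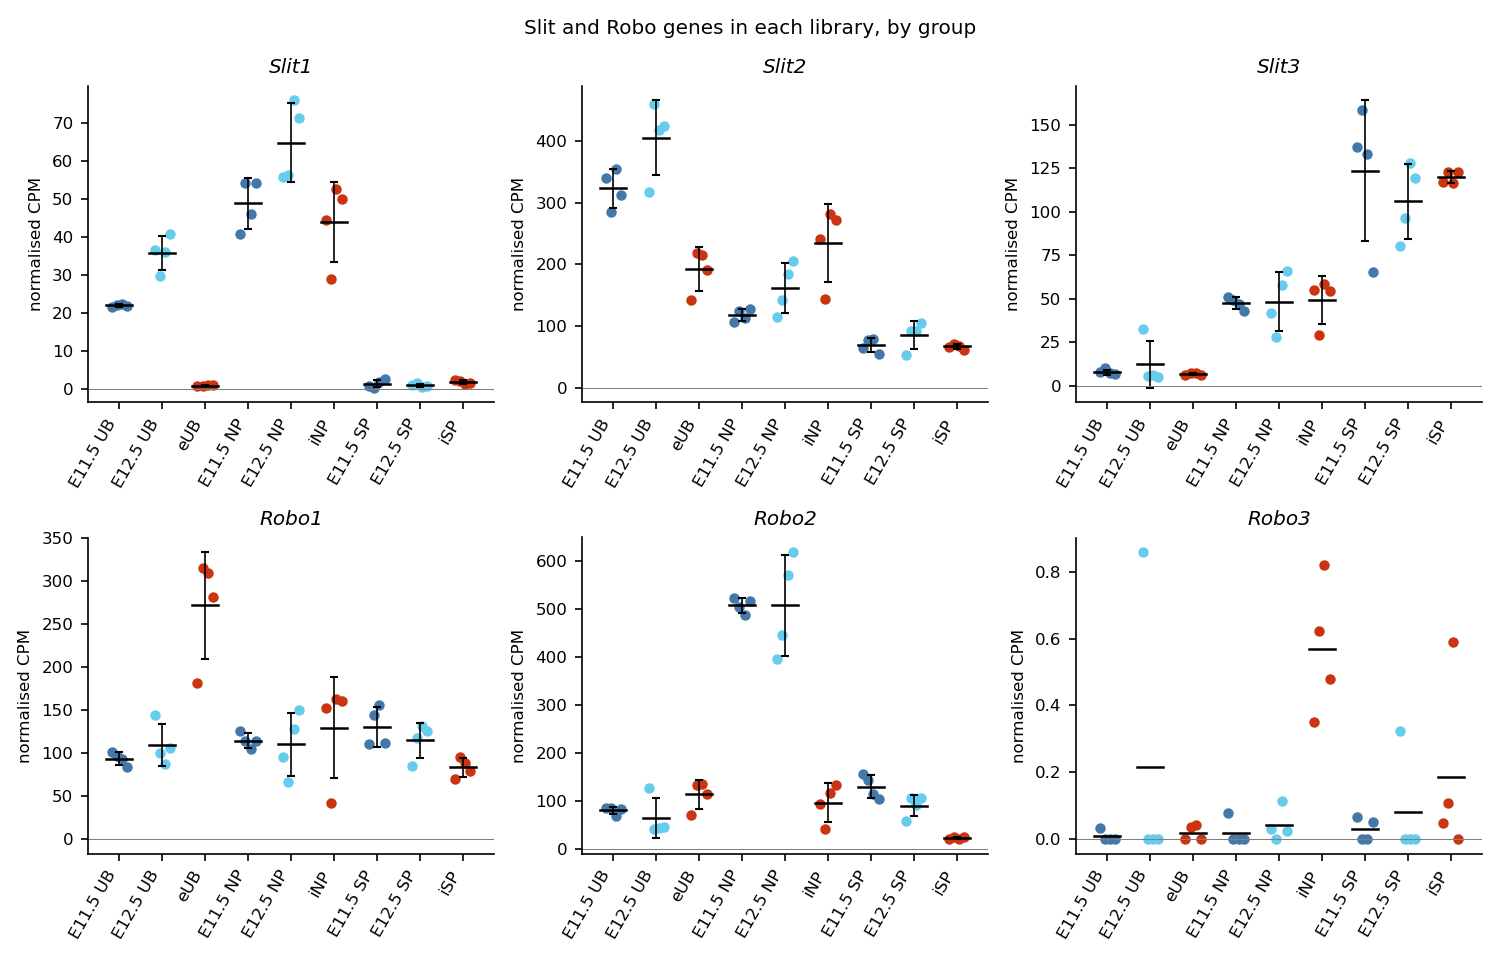
Normalised CPM of each member (vertical axes, linear, each with its own range) in the 4 libraries of each of the 9 groups. Points are libraries, horizontal lines are means and whiskers are SD (not drawn for *Robo3*); *Robo2* stood near 508 in ex-fetu NP and near 95.9 in iNP, and *Slit1* near 21.98 in E11.5 UB and 0.742 in eUB.

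Among the ligands, *Slit1* ranged from 0.243 to 76.0 normalised CPM over the libraries. In NP it was at 40.7, 54.2, 46.1 and 54.3 normalised CPM in the 4 E11.5 libraries and at 55.7, 56.4, 76.0 and 71.4 at E12.5. In iNP it was at 44.5, 28.8, 52.6 and 49.9. In UB it was at 21.5, 22.1, 22.4 and 21.9 at E11.5 and at 36.7, 29.6, 36.0 and 40.8 at E12.5. In eUB *Slit1* stood at 0.594, 0.710, 0.816 and 0.850, from 8 to 24 reads a library, which was detectable and below every ex-fetu UB library. SP libraries were low too, between 0.243 and 2.50 at E11.5, between 0.383 and 1.37 at E12.5 and between 1.29 and 2.22 in iSP. Every iSP library lay above every eUB library. *Slit1* was thus a gene of NP and UB in the embryo and, among mESC-derived cells, of iNP.

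*Slit2*, the ligand with the known role in bud outgrowth, was highest in ex-fetu ureteric bud cells. It was at 340, 285, 356 and 313 normalised CPM in E11.5 UB and at 318, 461, 419 and 424 in E12.5 UB. In eUB it was at 142, 219, 216 and 192, below all 8 ex-fetu UB libraries. NP came next, at 107 to 128 at E11.5 and 114 to 205 at E12.5. In iNP *Slit2* was at 242, 144, 282 and 272, above every E11.5 NP library. SP libraries lay at 54.3 to 79.6 at E11.5, 53.1 to 105 at E12.5 and 61.8 to 71.5 in iSP, and these ranges overlapped.

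*Slit3* ran the other way, with its highest levels in stroma. E11.5 SP libraries were at 137, 159, 134 and 65.2, E12.5 SP at 80.1, 96.3, 128 and 120, and iSP at 117, 123, 117 and 123. In NP it was at 43.1 to 51.0 at E11.5 and 28.2 to 65.9 at E12.5, and in iNP at 55.3, 29.2, 58.8 and 54.4. UB libraries were lowest, at 6.61 to 9.97 at E11.5 and 6.09 to 7.45 in eUB. At E12.5 they were at 5.68, 6.31 and 4.97 in replicates 2 to 4, with 32.4 in replicate 1, the library that held more RNA of other cells. Over the 36 libraries the log2 levels of *Slit2* and *Slit3* had Pearson's r = -0.78, a description of libraries that share 9 groups.

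*Robo2*, the receptor with the known role in bud outgrowth, was highest in ex-fetu NP. It was at 522, 503, 488 and 517 normalised CPM at E11.5 and at 395, 445, 571 and 619 at E12.5. iNP libraries were at 93.2, 40.4, 117 and 133. All 4 iNP libraries lay below all 8 ex-fetu NP libraries. SP had 155, 143, 115.3 and 103 at E11.5 and 57.7, 105, 91.2 and 107 at E12.5. iSP had the lowest levels of the 9 groups, at 21.2, 24.0, 20.2 and 23.7. UB libraries were at 85.1, 85.6, 69.3 and 82.1 at E11.5, at 127, 42.0, 43.3 and 45.3 at E12.5, and at 70.3, 134, 135 and 114.8 in eUB, where the shallowest library was the lowest.

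*Robo1*, the receptor with the more even levels here, differed little among the ex-fetu groups. Its ex-fetu means ran from 93.6 ± 7.64 (SD, n = 4) in E11.5 UB to 130 ± 23.3 (SD, n = 4) in E11.5 SP. eUB stood above, at 181, 315, 309 and 281, and these 4 libraries lay above every library of the other 8 groups. iSP was the lowest group at 69.5, 95.8, 88.5 and 79.6. iNP had 152, 163 and 161 in replicates 1, 3 and 4, and 42.5 in replicate 2.

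*Robo3* was at or near the limit of detection in most libraries. It was seen in all 4 iNP libraries, at 0.352, 0.623, 0.820 and 0.478 normalised CPM, from 10 to 28 reads. Elsewhere the highest values were 0.860 in E12.5 UB replicate 1 (21 reads), 0.591 in iSP replicate 3 (16 reads) and 0.325 in E12.5 SP replicate 1 (6 reads), and the other libraries had at most 5 reads. iNP lay above every NP library at both ages (exact two-sided permutation tests on log2(value + 1), p = 0.0286 each, the smallest that 4 against 4 allow, and 0.103 after Benjamini-Hochberg adjustment over 36 such tests of *Robo3* and *Robo4*). *Robo3* did not pass the filter on low values in any comparison. With no filter, limma called it higher in iNP than in E11.5 NP (log2 difference 0.61, adjusted p = 0.00026) and E12.5 NP (0.58, adjusted p = 0.00097) and lower in eUB than in iNP (-0.61, adjusted p = 0.00034), and its departure from E11.5 cells differed between eUB and iNP (-0.60, adjusted p = 0.00014). The related *Robo4*, a receptor of endothelial cells, was at 1.55 to 3.59 in iNP and 2.07 to 3.04 in iSP, above all E11.5 libraries of the same cell type (at most 0.818 in NP and 1.59 in SP), and was listed at 0 in all 4 eUB libraries. The 6 endothelial markers, among them *Robo4*, summed to 44.7 to 76.5 in iNP and 32.3 to 50.2 in iSP, against 8.44 to 24.9 in E11.5 NP and 14.8 to 38.9 in E11.5 SP. The 7 neuron and neural crest markers summed to 46.2 to 65.5 in iNP, against 26.9 to 40.1 in E11.5 NP, 12.3 to 25.3 in E12.5 NP and 29.4 to 38.2 in eUB. The part of either list in the values of *Robo3* and *Robo4* was not tested.

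Ordered by mean level, neighbouring groups were often not separated. Of the 48 neighbouring pairs over the 6 genes, 38 overlapped in range and 10 did not. Of the 38, 8 were pairs of *Robo3*, near the limit of detection. How often neighbouring groups overlap for other genes was not computed. The 10 pairs had an exact permutation p of 0.0286, the smallest that 4 against 4 allow, and 0 pairs stayed under 0.05 after adjustment over the 48. With so few pairs at that smallest p, adjustment could hardly leave any, and neighbours were set by the same means. The adjusted test therefore decides nothing here. Among the 10, limma called *Slit1* between the UB ages (adjusted p = 0.0018) and not between the NP ages (adjusted p = 0.13). *Robo2* ran from E11.5 NP and E12.5 NP, which overlapped, down a step to E11.5 SP, then through eUB, iNP, E12.5 SP, E11.5 UB and E12.5 UB, each overlapping the next, and a further step to iSP. *Slit1* ran from E12.5 NP through E11.5 NP, iNP, E12.5 UB and E11.5 UB, then iSP, E11.5 SP, E12.5 SP and eUB. *Slit2* ran from the ex-fetu UB groups through iNP, eUB, E12.5 NP and E11.5 NP to the SP groups, with iSP last. *Slit3* ran from the SP groups through the NP groups to the UB groups, and within each cell type the ranges of all 3 sources overlapped. For *Robo1* only eUB was separated from its neighbour.

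The first question of the design was how far eUB resembled ex-fetu UB. Compared with E11.5 UB, *Robo1* rose and *Slit1* and *Slit2* fell, while *Robo2* and *Slit3* were not called. *Slit1* fell from 21.98 ± 0.410 to 0.742 ± 0.116 normalised CPM (SD, n = 4 each), 29.6-fold by the means, with a log2 fold change of -3.72 (SE 0.09, limma adjusted p = 7.8e-09). *Slit2* fell from 324 ± 31.1 to 192 ± 35.8, a log2 fold change of -0.77 (SE 0.14, limma adjusted p = 0.00092). *Robo1* rose from 93.6 ± 7.64 to 272 ± 61.9, 2.90-fold by the means, with a log2 fold change of 1.498 (SE 0.16, limma adjusted p = 3.3e-05). The eUB and E11.5 UB libraries of these genes did not overlap. Of the 13956 genes tested, 60.5% were called, and 3 of the 5 members tested were, so the count itself was near the background.

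*Robo2* averaged 113 ± 30.1 in eUB and 80.5 ± 7.64 in E11.5 UB, a log2 difference of 0.45 (SE 0.19, limma adjusted p = 0.064). Without eUB replicate 1, the shallowest library, the difference in *Robo2* was 0.66 (limma adjusted p = 1.1e-05), and edgeR on the recovered reads called it with an adjusted p of 0.038, as did upper-quartile scaling (0.024) and quantile normalisation (0.023). *Slit3* was at 6.81 ± 0.667 and 7.90 ± 1.46, a log2 difference of -0.18 (SE 0.13, limma adjusted p = 0.26), called only under quantile normalisation (-0.40, adjusted p = 0.020). Macrophage markers summed to 35.7 to 57.6 in E11.5 UB and to at most 0.687 in eUB, and their part in these differences was not tested.

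Against E12.5 UB, *Slit1*, *Slit2* and *Robo1* were called as well, each in the direction seen against E11.5 UB. *Slit1* was lower in eUB by a log2 fold change of -4.39 (SE 0.13, limma adjusted p = 1.3e-07), *Slit2* by -1.08 (SE 0.16, adjusted p = 0.00085), and *Robo1* was higher by 1.29 (SE 0.20, adjusted p = 0.0011). These 3 of 5 members stood against a background of 44.4% of genes called. Both comparisons used the eUB libraries, so they are not independent of each other. *Robo2* was higher by 0.94 (SE 0.36, limma adjusted p = 0.064), by 1.32 (adjusted p = 0.0011) without E12.5 UB replicate 1 and by 1.15 (adjusted p = 0.030) without eUB replicate 1, and it was called with all 36 libraries in the fit (adjusted p = 0.0087). *Slit3* was not called with or without E12.5 UB replicate 1, and its sign depended on that library (log2 difference -0.35, adjusted p = 0.59, and 0.23, adjusted p = 0.14).

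In iNP, *Robo2* fell and *Slit2* rose relative to E11.5 NP. *Robo2* averaged 95.9 ± 40.4 in iNP and 508 ± 15.3 in E11.5 NP, 5.29-fold lower by the means, with a log2 fold change of -2.52 (SE 0.31, limma adjusted p = 7.1e-05). *Slit2* averaged 235 ± 62.8 and 118 ± 9.52, a log2 fold change of 0.94 (SE 0.19, limma adjusted p = 0.0019). The ranges did not overlap for either gene. Called were 2 of 5 members, against 64.7% of all genes tested. *Slit1* (log2 difference -0.17, adjusted p = 0.43), *Slit3* (0.00, adjusted p = 0.99) and *Robo1* (0.00, adjusted p = 1.0) were not called with all libraries in the fit.

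iNP replicate 2 had the lowest level of its group for *Slit1*, *Slit2*, *Slit3*, *Robo1* and *Robo2*. Without it, *Robo1* was higher in iNP than in E11.5 NP by 0.47 (limma adjusted p = 0.00014) and *Slit3* by 0.23 (adjusted p = 0.017), so that 4 of 5 members were called, against 73.1% of genes in that fit. Nephron progenitor markers summed to 455 to 844 in iNP and 1285 to 1463 in E11.5 NP, and paraxial mesoderm markers to 136 to 154 and 54.5 to 85.2. Their part in the lower *Robo2* of iNP was not tested. Against E12.5 NP, *Robo2* was lower in iNP by a log2 fold change of -2.50 (SE 0.33, limma adjusted p = 0.00023) and *Slit1* by -0.57 (SE 0.20, adjusted p = 0.042), 2 of 5 members against 44.3% of genes. The *Slit1* call was lost without any 1 of iNP replicates 1, 2 and 4 and E12.5 NP replicates 3 and 4 (adjusted p between 0.050 and 0.12; -0.39, adjusted p = 0.055, without iNP replicate 2), under upper-quartile scaling (0.076) or quantile normalisation (0.052), and with no filter on low values (0.052). *Slit2* differed by 0.53 (adjusted p = 0.11), by the same amount with adjusted p = 0.043 with the replicate number as a block, and by 0.74 (adjusted p = 0.014) without iNP replicate 2. It was also called under upper-quartile scaling (adjusted p = 0.030), quantile normalisation (adjusted p = 0.025) and with all 36 libraries in the fit (adjusted p = 0.024).

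In iSP both receptors fell and no ligand was called relative to E11.5 SP. *Robo2* averaged 22.3 ± 1.87 in iSP and 129 ± 24.0 in E11.5 SP, 5.80-fold lower by the means, with a log2 fold change of -2.47 (SE 0.13, limma adjusted p = 5.0e-07). *Robo1* averaged 83.4 ± 11.4 and 130 ± 23.3, a log2 fold change of -0.63 (SE 0.14, limma adjusted p = 0.0031). These 2 of 5 members stood against 67.6% of genes. *Slit2* was at 67.0 ± 4.06 and 69.1 ± 11.9 (log2 difference -0.03, adjusted p = 0.85) and *Slit3* at 120 ± 3.44 and 124 ± 40.5 (0.03, adjusted p = 0.92). Without E11.5 SP replicate 4, where *Slit3* was 65.2 against 134 to 159 in the others, *Slit3* was lower in iSP by a log2 fold change of -0.25 (adjusted p = 0.017). Paraxial mesoderm markers summed to 173 to 193 in iSP and 23.4 to 29.8 in E11.5 SP, and neural markers to 56.7 to 84.8 and 15.98 to 24.1, and their part in these differences was not tested.

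Against E12.5 SP, *Robo2* was lower in iSP by a log2 fold change of -1.93 (SE 0.18, limma adjusted p = 1.9e-05), *Robo1* by -0.45 (SE 0.15, adjusted p = 0.026), and *Slit1* was higher by 0.58 (SE 0.19, adjusted p = 0.022) at levels of 1.69 ± 0.447 and 0.816 ± 0.420. Called were 3 of 5 members, against 62.1% of genes. The ranges of *Robo1* and *Slit1* overlapped. The *Robo1* call was lost without any 1 of E12.5 SP replicates 2, 3 and 4 and iSP replicates 1 and 4 (adjusted p between 0.052 and 0.077), and the *Slit1* call without any 1 of E12.5 SP replicates 3 and 4 and iSP replicates 1 and 2 (adjusted p between 0.055 and 0.063). Quantile normalisation also ended both calls (adjusted p = 0.066 for *Robo1* and 0.068 for *Slit1*), and upper-quartile scaling (adjusted p = 0.058) and all 36 libraries in the fit (adjusted p = 0.16) that of *Robo1*. *Slit3* was called under quantile normalisation only, higher in iSP by 0.34 (adjusted p = 0.039). Without E12.5 SP replicate 1, *Slit2* was lower in iSP by -0.52 (adjusted p = 0.00022), against -0.30 (adjusted p = 0.18) with all libraries.

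**Figure D2:**
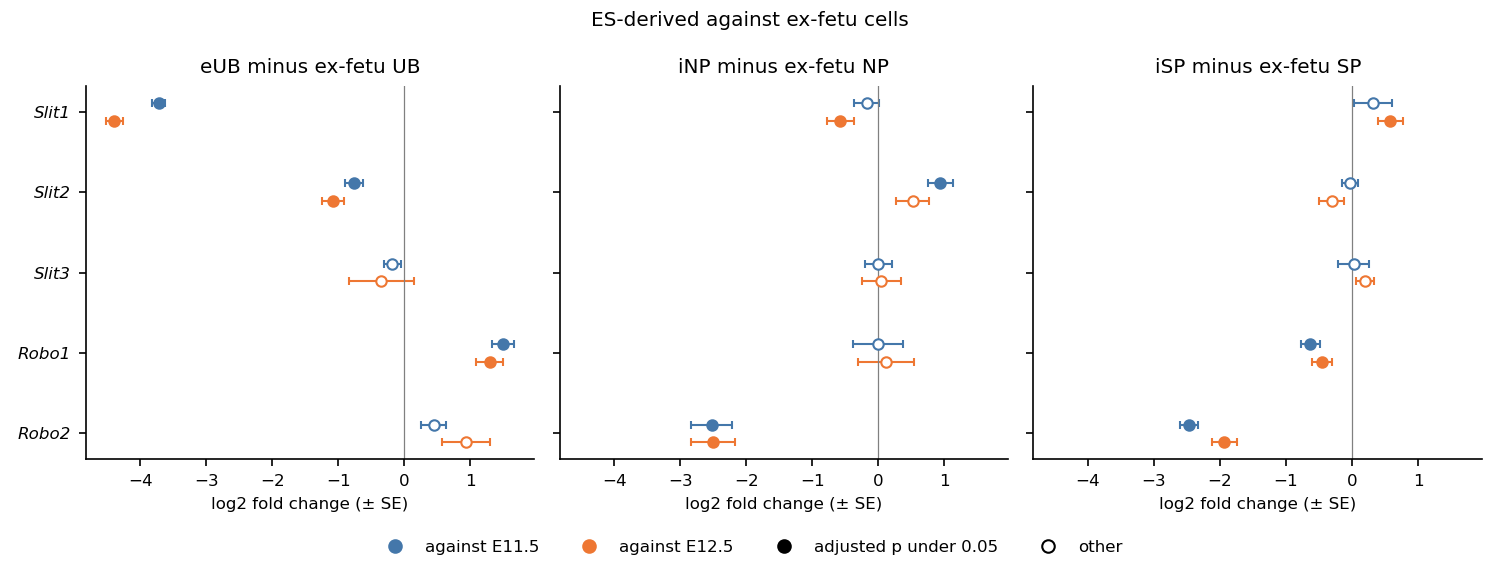
Log2 fold change of 5 members (horizontal axis, limma on log2(normalised CPM + 1), whiskers are SE) for mESC-derived minus ex-fetu cells of the same type, against E11.5 and against E12.5. Filled points have an adjusted p-value under 0.05; *Robo2* lay near -2.5 in iNP and iSP against E11.5 and above 0 in eUB, and *Slit1* was far below 0 in eUB.

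Whether the mESC-derived cells departed from E11.5 cells by different amounts in different cell types was tested as a difference of differences. Between iNP and iSP, the departures of *Robo2*, -2.52 and -2.47, were not told apart, with a difference of -0.05 (SE 0.36, limma adjusted p = 0.94). A difference larger than this SE could also have been missed, so the departures are not shown to be equal. The departure of *Slit2* was higher in iNP (0.94, called) than in iSP (-0.03, not called), by 0.97 (SE 0.24, adjusted p = 0.0061), the only 1 of 5 members called, against 29.3% of genes. Between eUB and iNP the departures of 4 of 5 members differed, against 47.1% of genes. That of *Robo2* differed by 2.97 (SE 0.39, adjusted p = 1.2e-05), of *Robo1* by 1.496 (SE 0.45, adjusted p = 0.011), of *Slit1* by -3.55 (SE 0.21, adjusted p = 1.7e-09) and of *Slit2* by -1.71 (SE 0.25, adjusted p = 4.0e-05). The same 4 of 5 members differed between eUB and iSP, against 47.4% of genes, by 2.92 for *Robo2*, 2.13 for *Robo1*, -4.04 for *Slit1* and -0.74 for *Slit2* (limma adjusted p between 6.0e-08 and 0.0053). *Slit3* was called in none of these 3 tests. Without iNP replicate 2, *Robo1* also differed between iNP and iSP, by 1.10 (limma adjusted p = 0.00015) against 0.63 (adjusted p = 0.31) with all libraries, and *Slit3* between eUB and iNP, by -0.41 (adjusted p = 0.040) against -0.18 (adjusted p = 0.58).

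Between E11.5 and E12.5 few members changed. In UB, *Slit1* rose from 21.98 ± 0.410 to 35.8 ± 4.60, a log2 fold change of 0.67 (SE 0.10, limma adjusted p = 0.0018), the 1 call among 5 members against 26.5% of genes, with ages as the sample titles give them. With all libraries, the log2 differences of *Robo2* (-0.49, adjusted p = 0.28), *Slit2* (0.32, adjusted p = 0.073) and *Slit3* (0.17, adjusted p = 0.83) were not called. Without E12.5 UB replicate 1, *Robo2* was lower at E12.5 by -0.87 (adjusted p = 4.4e-06), *Slit3* by -0.41 (adjusted p = 0.034) and *Slit2* higher by 0.43 (adjusted p = 0.00052), so that 4 of 5 members were called, against 43.8% of genes in that fit. *Slit2* was also called under upper-quartile scaling (0.33, adjusted p = 0.042) and quantile normalisation (0.41, adjusted p = 0.017). In SP, limma called 0 of 4 members against 8.52% of genes, with 1 (*Robo2*) at an unadjusted p under 0.05. In NP, limma called 0 of 5 against 6.34% of genes, with 2 (*Slit1* and *Slit2*) at an unadjusted p under 0.05. edgeR on the recovered reads called 0 in both. *Slit2* was called in NP without E12.5 NP replicate 1 (0.57, limma adjusted p = 0.022, against 0.42, adjusted p = 0.18, with all libraries). In SP it was called without E12.5 SP replicate 1 (0.49, adjusted p = 0.048, against 0.28, adjusted p = 0.49). The change with age did not differ by a called amount between NP and SP for any of 5 members (2.69% of genes called), and 0 had an unadjusted p under 0.05.

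The second comparison of the design was between cell types of the same source. NP differed from SP in *Slit1*, *Slit2*, *Slit3* and *Robo2* in each of the 3 sources. At E11.5 *Slit1* was higher in NP by a log2 fold change of 4.53, *Robo2* by 1.98 and *Slit2* by 0.78, and *Slit3* was lower by -1.28 (limma adjusted p between 2.5e-06 and 0.0020). The same 4 of 5 members were called at E12.5 and among mESC-derived cells, against 43.1% of genes at E11.5, 34.8% at E12.5 and 30.7% for iNP against iSP. Log2 fold changes of *Robo2* were 2.49 at E12.5 and 1.93 for iNP against iSP, those of *Slit1* 5.20 and 4.04, those of *Slit2* 0.92 and 1.75, and those of *Slit3* -1.16 and -1.31. The E12.5 call of *Slit2* was lost without NP replicate 3 (adjusted p = 0.051) or 4 (adjusted p = 0.052). *Robo2* was thus higher in NP than in SP in each source, while both iNP and iSP stood lower than in the embryo. *Robo1* was not called in any of the 3 sources. Its log2 difference between iNP and iSP was 0.46 (limma adjusted p = 0.41) with all libraries and 0.93 (adjusted p = 1.1e-05) without iNP replicate 2. At E12.5, where replicate numbers paired the NP and SP samples, a fit with the number as a block called 7961 of 13772 genes instead of 4789, and 4 members in both fits.

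UB differed from NP at E11.5 in all 5 members tested, against 60.2% of genes. *Slit2* was higher in UB by a log2 fold change of 1.45 (SE 0.08, limma adjusted p = 1.3e-08), and *Robo2* was lower by -2.65 (SE 0.07, adjusted p = 1.7e-11), *Slit3* by -2.46 (SE 0.11, adjusted p = 2.3e-09) and *Slit1* by -1.11 (SE 0.10, adjusted p = 7.0e-07). *Robo1* was lower by -0.29 (SE 0.08, adjusted p = 0.0060), a call lost with all 36 libraries in the fit (adjusted p = 0.43). At E12.5 the same directions held for *Slit1*, *Slit2*, *Slit3* and *Robo2*, 4 of 5 members against 32.7% of genes. Between eUB and iNP the pattern was different. *Slit2* (log2 difference -0.26, adjusted p = 0.36) and *Robo2* (0.32, adjusted p = 0.48) were not called, *Slit1* was lower in eUB by -4.66 (SE 0.18, adjusted p = 4.2e-08), *Slit3* by -2.64 (SE 0.21, adjusted p = 4.9e-06), and *Robo1* was higher by 1.21 (SE 0.42, adjusted p = 0.035), 3 of 5 members against 52.2% of genes. The *Robo1* call was lost without eUB replicate 2, 3 or 4 (adjusted p between 0.076 and 0.086), and *Slit2* was lower in eUB by -0.48 (adjusted p = 0.027) without iNP replicate 2.

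UB differed from SP at E11.5 in all 5 members, against 53.6% of genes. *Slit1* was higher in UB by a log2 fold change of 3.43 (SE 0.28, limma adjusted p = 2.4e-06) and *Slit2* by 2.22 (SE 0.13, adjusted p = 2.3e-07), and *Slit3* was lower by -3.75 (SE 0.25, adjusted p = 5.8e-07), *Robo2* by -0.66 (SE 0.14, adjusted p = 0.0020) and *Robo1* by -0.46 (SE 0.13, adjusted p = 0.011). Both receptor calls were lost with all 36 libraries in the fit (adjusted p = 0.056 for *Robo2* and 0.17 for *Robo1*). At E12.5 *Slit1*, *Slit2* and *Slit3* were called in the same directions, 3 of 5 members against 46.4% of genes, and *Robo2* was lower in UB by -0.996 (adjusted p = 0.0038) once E12.5 UB replicate 1 was left out, against -0.62 (adjusted p = 0.19) with all libraries. eUB against iSP again gave 5 of 5 members, against 64.7% of genes, with 3 directions opposite to those at E11.5: *Robo2* was higher in eUB by 2.25 (SE 0.19, adjusted p = 3.9e-06), *Robo1* higher by 1.67 (SE 0.18, adjusted p = 2.1e-05) and *Slit1* lower by -0.61 (SE 0.13, adjusted p = 0.0022). *Slit2* was higher by 1.49 and *Slit3* lower by -3.95, as in the embryo.

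**Figure D3:**
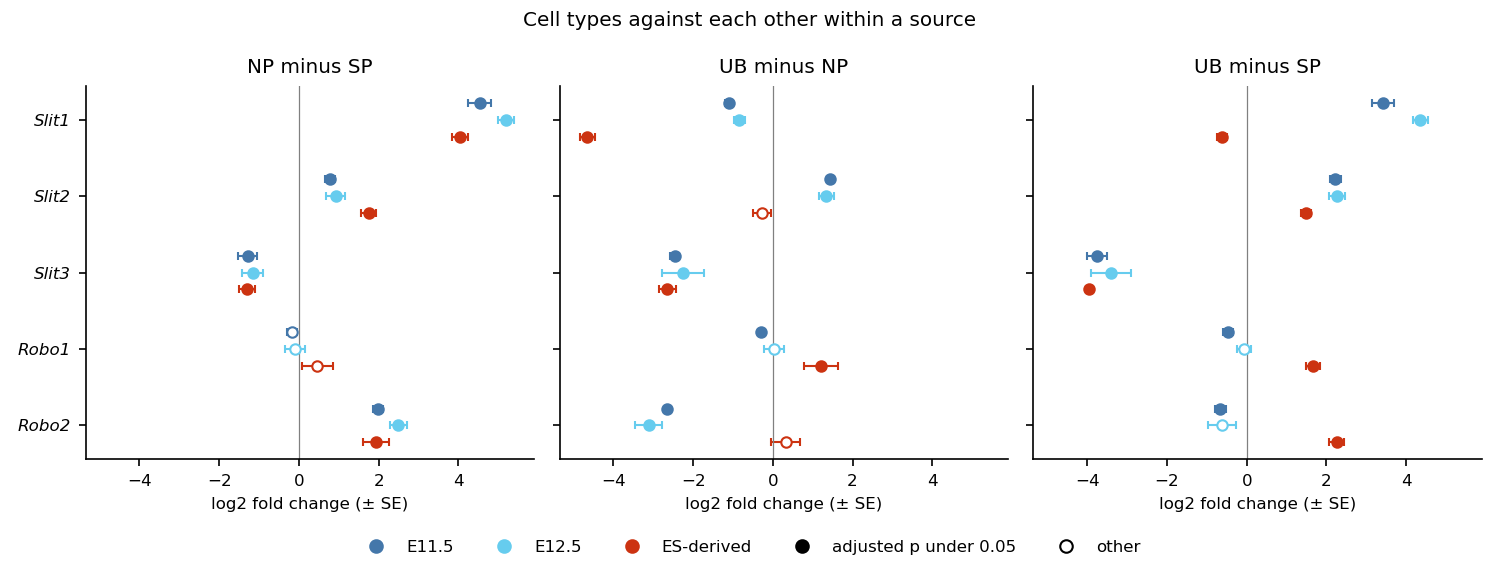
Log2 fold change of 5 members (horizontal axis, whiskers are SE) between cell types of E11.5, E12.5 and mESC-derived cells. Filled points have an adjusted p-value under 0.05; NP minus SP had the same sign in the 3 sources for *Slit1*, *Slit2*, *Slit3* and *Robo2*, while UB minus NP and UB minus SP of the mESC-derived cells differed from those at E11.5 for *Slit1*, *Slit2*, *Robo1* and *Robo2*.

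Levels of different genes were compared per kb of the longest coding transcript in GENCODE, 8.59 kb for *Robo2*, 7.56 kb for *Robo1*, 5.67 kb for *Slit1*, 9.96 kb for *Slit2* and 5.23 kb for *Slit3*. On this scale *Robo2* made up 79.6% ± 0.790 of the summed Robo level in E11.5 NP and 40.1% ± 4.32 in iNP (SD, n = 4 each). In SP its share was 46.6% ± 6.64 at E11.5 and 19.1% ± 2.20 in iSP, and in UB it was 43.1% ± 2.89 at E11.5 and 26.7% ± 0.993 in eUB. *Robo2* was thus the main receptor transcript in ex-fetu NP, while *Robo1* exceeded it per kb in all mESC-derived libraries, all ex-fetu UB libraries and all E12.5 SP libraries. The log2 ratio of *Robo2* to *Robo1* per kb was 1.97 ± 0.0692 in E11.5 NP and -0.57 ± 0.271 in iNP, with no overlap of the libraries. iNP replicate 2 had the highest ratio of its group, -0.26. The sum of Robo levels per kb was 74.2 ± 2.84 in E11.5 NP and 28.4 ± 12.2 in iNP, where it ran from 10.4 in replicate 2 to 36.8, and it was 21.8 ± 1.48 in E11.5 UB and 49.1 ± 11.7 in eUB.

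*Slit2* made up 85.7% ± 1.76 of the summed Slit level per kb in E11.5 UB and 93.0% ± 0.781 in eUB, where the share of *Slit1* was 0.639% ± 0.0841 against 10.3% ± 0.832. *Slit3* led in SP, with 75.7% ± 5.52 at E11.5 and 76.6% ± 1.29 in iSP. In E11.5 NP the 3 ligands took 29.0% (*Slit1*), 40.0% (*Slit2*) and 31.0% (*Slit3*), and in iNP 19.1%, 57.8% and 23.1%. The shares depend on the length used: per kb of all exonic bases merged, 25.4 kb for *Slit2*, its level in E11.5 NP (4.64) was below those of *Slit1* (8.25) and *Slit3* (7.86). Changes of a gene between groups do not depend on its length.

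**Figure D4:**
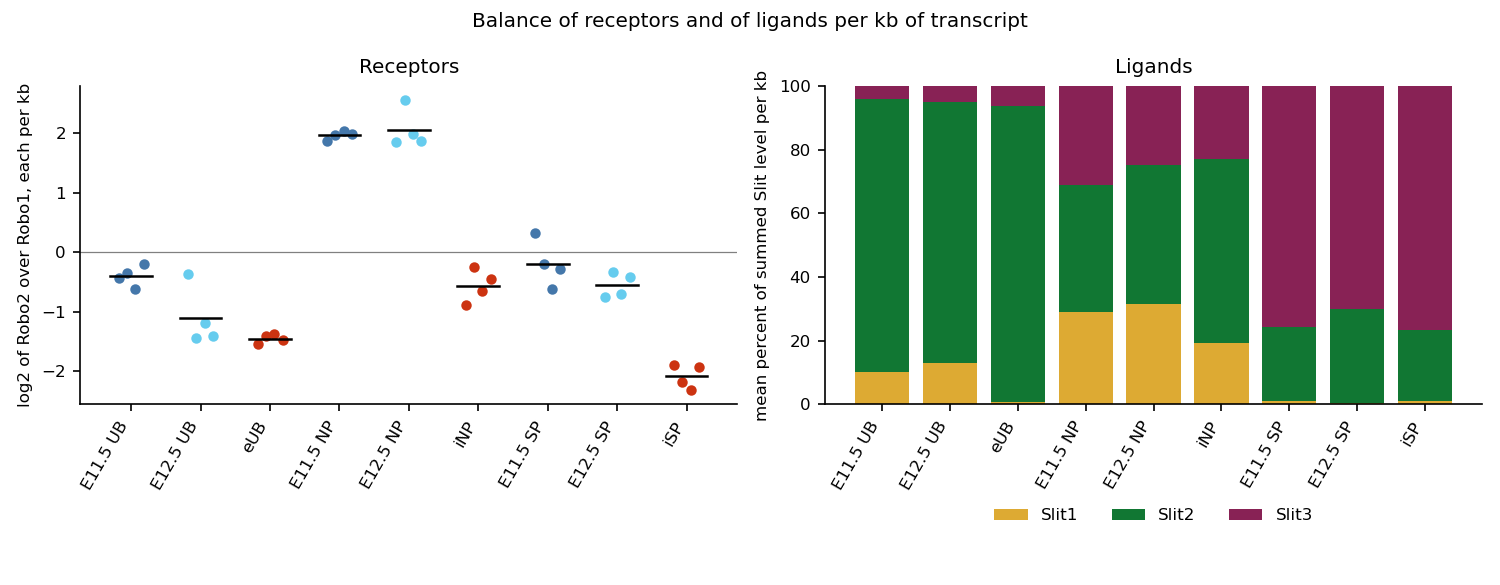
Left, log2 ratio of *Robo2* to *Robo1* per kb of transcript in each library (points) with group means (lines); right, mean percent of the summed Slit level per kb taken by each ligand in the 9 groups. The ratio was near 2 in ex-fetu NP and below 0 in every mESC-derived, ex-fetu UB and E12.5 SP library, and *Slit2* led in UB and *Slit3* in SP.

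Genes that work with SLIT and ROBO, a list of 43 co-receptors, alternative ligands, adaptors, GTPase regulators and actin regulators, were tested in the same fits. In eUB against E11.5 UB, 8 rose and 17 fell of 42 tested, 59.5% against the 60.5% of all genes, with a median log2 fold change of -0.19 against 0.02 over all genes. The heparan sulphate carrier *Sdc3* fell from 129 ± 4.28 to 52.9 ± 2.32 (log2 fold change -1.27, limma adjusted p = 2.7e-07) and the actin regulator *Vasp* from 281 ± 26.4 to 122 ± 10.3 (-1.20, adjusted p = 3.2e-06). *Nell2*, a ligand of ROBO3, rose from 1.16 ± 0.694 to 8.20 ± 1.75 (2.13, adjusted p = 3.2e-05) and the cyclase-associated protein gene *Cap2* from 1.75 ± 0.273 to 10.4 ± 0.297 (2.06, adjusted p = 2.9e-07). The chemokine *Cxcl12* fell (-2.55, adjusted p = 7.9e-08) and its receptor *Cxcr4* rose (1.41, adjusted p = 1.9e-05). The partners thus moved in both directions, with a share called close to the background.

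In iNP against E11.5 NP, 7 of 43 partners rose and 18 fell, 58.1% against 64.7% of all genes, with a median of -0.29. *Srgap3*, from a family of GTPase activators that bind ROBO1, rose from 9.46 ± 3.97 to 31.7 ± 9.72 (log2 fold change 1.65, limma adjusted p = 0.00083). The exchange factors *Sos1* and *Sos2*, which link ROBO to Rac, fell by log2 fold changes of -1.36 (adjusted p = 0.00071) and -1.43 (adjusted p = 8.1e-05). The syndecan *Sdc4* (-1.33, adjusted p = 1.4e-05) and the kinase gene *Abl2* (-1.18, adjusted p = 0.0018) fell, and *Robo4* rose (1.31, adjusted p = 0.00033). In iSP against E11.5 SP, 7 of 43 rose and 20 fell, 62.8% against 67.6% of all genes, with a median of -0.32. *Cxcl12* fell from 923 ± 154 to 298 ± 24.2 (-1.62, adjusted p = 3.6e-06), and *Flrt3*, a co-receptor of ROBO1, fell from 93.7 ± 8.08 to 34.0 ± 2.15 (-1.44, adjusted p = 1.1e-06). *Robo4* rose (1.30, adjusted p = 0.0010).

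A second list held 18 genes known for placing the ureteric bud. Like the partners, it was chosen with earlier results of these data known, so its share called is no independent test. *Eya1*, *Sall1* and *Osr1* were also among the nephron progenitor markers. In iNP against E11.5 NP, 4 rose and 13 fell of 18 tested, 94.4% against 64.7% of all genes, with a median log2 fold change of -0.92. *Foxc1*, whose loss is known to widen the *Gdnf* territory, fell from 217 ± 12.01 to 22.1 ± 4.40 (-3.25, limma adjusted p = 7.9e-08), and in iSP against E11.5 SP it fell from 262 ± 44.8 to 6.10 ± 2.37 (-5.25, adjusted p = 1.3e-07). *Grem1*, a BMP antagonist, fell in iNP (-2.27, adjusted p = 0.00010) and in iSP (-4.41, adjusted p = 3.1e-06), and *Bmp4* rose in iNP from 16.2 ± 1.40 to 87.1 ± 6.76 (2.36, adjusted p = 1.0e-07). *Hoxc11* and *Hoxd11* fell in iNP (-1.66 and -1.48, adjusted p = 9.7e-06 and 5.2e-07).

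In iSP against E11.5 SP, 3 rose and 9 fell of the 18, 66.7% against 67.6% of all genes, with a median of -0.80. *Gdnf*, the growth factor that draws out the bud, fell from 40.8 ± 5.24 to 6.70 ± 1.48 (log2 fold change -2.45, limma adjusted p = 1.2e-06), and *Sall1* fell (-1.89, adjusted p = 1.6e-05). *Ret*, which encodes the GDNF receptor, was at 6.22 to 29.1 in E11.5 SP and 0.193 to 1.075 in iSP (-3.66, adjusted p = 3.4e-05), beside ureteric bud markers that summed to 128 to 299 and 83.3 to 94.2, and the part of bud cells in this value was not tested. In eUB against E11.5 UB, 5 rose and 4 fell of 13 tested, 69.2% against 60.5% of all genes. *Grem1* (-2.43, adjusted p = 6.8e-07), *Hoxd11* (-1.99, adjusted p = 7.2e-05), *Wt1* (-1.77, adjusted p = 2.7e-06) and *Foxc2* (-1.71, adjusted p = 1.3e-05) fell from levels of at most 16.7, and *Eya1* (1.62, adjusted p = 1.2e-05) and *Sall1* (1.13, adjusted p = 9.5e-05) rose.

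The genes whose log2 levels followed a member most closely over the 36 libraries were found by Pearson's r among 16001 genes. *Slit3* had the closest, *Colec12* (r = 0.98), *Adgra2* (0.98) and *Svep1* (0.98). *Slit1* was followed by *Fam195a* (0.94) and *Ppp1r1a* (0.94), *Slit2* by *Tspan18* (0.94) and *Celsr1* (0.94), and *Robo2* by *Cftr* (0.93), *Rbm20* (0.92) and *Cacnb4* (0.91). *Robo1* had no gene above 0.82, that of *Rbm41*, followed by *Ddias* (0.78) and *Exoc4* (0.78). These values describe likeness over libraries that share 9 groups.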

How the data were processed

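RNA of 36 samples (9 groups of 4) was sequenced from a stranded mRNA kit as read pairs. Cutadapt (trimming), STAR (alignment) and edgeR (normalisation) were used by the authors. How reads were counted, with or without strand, and on which annotation is not given in the sources used here, and the genome is written GRCh38 although the gene identifiers are those of mouse. The deposited signal values are CPM values scaled by the authors with edgeR's factors. The deposited log2 values, p-values and FDR values are the authors' own comparisons and were not used.

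All values (100%) were whole multiples of 1 read within 0.05 reads, which recovered 13.0 to 52.5 M reads on genes per library. Limits of detection cover counting error only. Where 4 or more libraries of a comparison reached 1 normalised CPM, the gene entered a limma 3.58.1 fit (R 4.3.3, eBayes with a trend) of log2(value + 1), made on the libraries compared only, with Benjamini-Hochberg adjustment over all genes tested and a threshold of 0.05; 18 pairs of groups and 4 differences of differences were tested. The analysis was tested on simulated counts. The members, gene lists and marker lists were chosen with earlier results of these data known. Named list genes are the called ones with a log2 fold change above 1 in size against E11.5 cells, at most 6 per list and comparison; likeness to a member was ranked by Pearson's r, and up to 3 genes were named; some genes that these rules select are not reported here. Promoter sequences are from RefSeq (GRCm38.p6), positions and transcript lengths from GENCODE vM21, and near copies of member transcripts were searched with BLAST 2.17.0; none of 90% identity or more over 100 bases was found. Replicate numbers come from the sample titles. Same-numbered E12.5 NP and SP samples deviated together (correlation of deviations from the group means 0.519 to 0.682), above 0.1 in every pair, as in no other comparison, and this pairing is a hint from the data, since the labels do not state one. P-values measure the spread between samples, which pooled animals or batches. Alternatives were a pseudocount of 0.1, no filter, upper-quartile scaling, quantile normalisation, edgeR 4.0.16 on the recovered reads, all 36 libraries in a single fit, the replicate number as a block and each library left out in turn. The other steps ran in Python 3.11.15 (pandas 2.3.3, scipy 1.17.1, numpy 2.4.6).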

Additional observations from a re-analysis of the deposited data

Results flagged for a closer look

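In groups of 4 libraries, a library stands apart by Dixon's criterion where its gap to the nearest of the others takes up most of the range, which chance meets in about 1 in 20 groups; 4 of 45 groups of the members other than *Robo3* did. E12.5 UB replicate 1 stood apart in *Slit3* (32.4 normalised CPM against 4.97 to 6.31) and *Robo2* (127 against 42.0 to 45.3). iNP replicate 2 stood apart in *Slit3* (29.2 against 54.4 to 58.8) and *Robo1* (42.5 against 152 to 163). *Robo3* met the criterion in 4 groups where the other 3 libraries were at 0, so that any read at all would meet it: E12.5 UB replicate 1 (0.860), E12.5 SP replicate 1 (0.325), E11.5 NP replicate 1 (0.0779, from 2 reads) and E11.5 UB replicate 1 (0.0323, from 1 read).

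The departure of mESC-derived from E11.5 cells differed between cell types, by limma tests of the difference itself (4 libraries in each of 4 groups), in 9 of 15 tests, none lost in any alternative. Between iNP and iSP, where 29.3% of genes were called, this was *Slit2* (0.97 on the log2 scale). Between eUB and iNP (47.1% of genes) it was *Robo1* (1.496), *Robo2* (2.97), *Slit1* (-3.55) and *Slit2* (-1.71). Between eUB and iSP (47.4% of genes) it was *Robo1* (2.13), *Robo2* (2.92), *Slit1* (-4.04) and *Slit2* (-0.74). mESC line and cell type changed together in those with eUB and cannot be told apart.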

How the results depend on the processing

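Over 109 tests of a member, 62 were called, 54 of them in every alternative run. Of 47 not called, 28 stayed so in every alternative. Per comparison, 2.69% to 67.6% of all genes were called, and how many of those calls held in every alternative was not computed. The calls lost in some alternative were *Robo1* in E11.5 UB against NP and SP, iSP against E12.5 SP and eUB against iNP, *Robo2* in E11.5 UB against SP, *Slit1* in iNP and iSP against E12.5 cells, and *Slit2* in E12.5 NP against SP; the cause was not tested. In 56 cases a sign differed with neither value called.

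Smaller moves in the counts of members called are left out. Among these were 2 to 4 in place of 3 for eUB against iNP without 1 library. With all 36 libraries, iSP against E12.5 SP gave 2 in place of 3 and iNP against E12.5 NP gave 3 in place of 2. Moves larger in proportion were as follows, without the share of all genes called in the same fits. With all 36 libraries, E11.5 UB against SP gave 3 in place of 5. Quantile normalisation gave 5 in place of 3 for eUB against E11.5 UB and, like upper-quartile scaling, 2 in place of 1 for UB ages. Leaving out a library gave 1 to 4 for UB ages, 0 to 1 for NP and for SP ages, 2 to 4 for iNP against E11.5 NP, 1 to 2 for iNP against E12.5 NP and for the difference between iNP and iSP, and 1 to 4 for iSP against E12.5 SP. *Slit3* reversed in UB ages (0.17, range -0.41 to 0.42) and in iSP against E11.5 SP (0.03, range -0.25 to 0.17).

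Of all genes, all 36 libraries in a fit called 1528 in place of 850 for NP ages, 2987 in place of 1162 for SP ages and 748 in place of 388 for the difference between them. Leaving out a library gave 188 to 2289, 420 to 2943 and 240 to 855, and 2359 to 6031 for UB ages, where 3648 were called with every library. The replicate block gave 2365 for UB ages and 7961 in place of 4789 for E12.5 NP against SP; among members the blocked fit changed the call of *Slit2* in iNP against E12.5 NP (adjusted p = 0.043) and no other. The paper made iNP and iSP in the same cultures and sorted them apart. The labels do not say which samples shared a culture or a litter, and the main fits took all samples as independent. Upper-quartile scaling raised the median log2 difference of all genes from 0.07 to 0.24 in iNP against E11.5 NP (higher and lower calls 6116 and 3140 in place of 4995 and 4107) and from 0.04 to 0.17 against E12.5 NP (4395 and 1909 in place of 3601 and 2636). Quantile normalisation gave 2278 higher and 2823 lower in E12.5 UB against NP in place of 2562 and 1988. At this depth *Robo3* and *Slit1* in eUB and SP rest on few reads.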
